A study of Mus musculus with 24 samples.

Results

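The 8 genes described here are the transcription factor gene Nfe2l2, which encodes NRF2, and 7 genes of the antioxidant programme that NRF2 drives: Nqo1, Gclc, Gclm, Slc7a11, Txnrd1, Srxn1 and Gsta4. They were chosen by name from knowledge of the pathway, with earlier results of these data known. They were found by symbol among the 54446 genes of an expression table of corpus callosum, the large white matter tract between the hemispheres of the mouse brain. Bulk RNA sequencing of polyadenylated RNA gave 24 libraries in 4 groups, namely cuprizone with a BTK inhibitor (BTKi, n = 8), cuprizone with vehicle (n = 8), naive mice with BTKi (n = 4) and naive mice with vehicle (n = 4). Cuprizone chelates copper and causes loss of myelin-forming oligodendrocytes, and BTK (Bruton's tyrosine kinase) signals in B cells and in myeloid cells such as microglia. The sources used here do not give the compound, its dose, how long each treatment lasted, or the strain, sex and age of the mice. Whether each library is a separate animal is not labelled, and the p-values therefore reflect only spread among these samples, part of which may be technical.

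NRF2 is made continuously and is held at a low level by KEAP1, which passes it to a ubiquitin ligase. When oxidants or electrophiles modify KEAP1, NRF2 escapes degradation, pairs with a small MAF protein and binds antioxidant response elements near its target genes, so much of its control acts on the protein and not on its mRNA. Its targets make and recycle glutathione, reduce thioredoxin and peroxiredoxins, and conjugate or reduce electrophiles. In brain, astrocytes and microglia are known for a strong NRF2 response, whereas the cystine transporter gene Slc7a11 is also a target of ATF4, the factor of the integrated stress response and of amino acid shortage.

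Promoter sequence is shown first for the members on which the results turn and for a pair of targets set against them, because the elements in these windows differ between genes. The windows are the 250 bases before the RefSeq start on GRCm38.p6, read 5′ to 3′ on the strand of the gene. Capitals mark matches on either strand to an antioxidant response element core (TGACNNNGC, or its form with a G, TGAGNNNGC) or to the core of the composite element that ATF4 binds with C/EBP proteins (TGATGNAA).
Slc7a11, chr3:50443614-50443863, minus strand: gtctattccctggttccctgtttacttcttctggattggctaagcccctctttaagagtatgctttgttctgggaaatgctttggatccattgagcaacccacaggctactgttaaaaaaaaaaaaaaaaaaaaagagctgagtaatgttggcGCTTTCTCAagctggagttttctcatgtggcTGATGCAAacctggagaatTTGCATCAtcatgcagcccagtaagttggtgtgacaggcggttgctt
Nfe2l2, chr2:75704664-75704913, minus strand: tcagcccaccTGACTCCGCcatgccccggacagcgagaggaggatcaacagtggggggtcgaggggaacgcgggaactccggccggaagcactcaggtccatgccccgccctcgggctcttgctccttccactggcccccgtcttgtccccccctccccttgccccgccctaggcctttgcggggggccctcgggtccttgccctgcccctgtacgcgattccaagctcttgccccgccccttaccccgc
Srxn1, chr2:152105274-152105523, plus strand: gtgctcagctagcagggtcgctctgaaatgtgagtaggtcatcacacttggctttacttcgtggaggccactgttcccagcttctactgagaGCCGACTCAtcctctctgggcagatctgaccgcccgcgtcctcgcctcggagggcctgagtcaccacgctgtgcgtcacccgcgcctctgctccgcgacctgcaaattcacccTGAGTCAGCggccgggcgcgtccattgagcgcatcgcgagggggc
Gclm, chr3:122245307-122245556, plus strand: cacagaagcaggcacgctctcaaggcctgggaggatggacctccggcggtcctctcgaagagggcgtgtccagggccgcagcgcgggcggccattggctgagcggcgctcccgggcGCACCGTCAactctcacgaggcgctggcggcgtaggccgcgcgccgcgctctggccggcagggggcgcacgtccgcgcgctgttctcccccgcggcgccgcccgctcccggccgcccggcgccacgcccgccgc

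The Slc7a11 window held a pair of matches to the ATF4 element, TGATGCAA on the plus strand of the gene at bases -66 to -59 before its start and TTGCATCA, the same element on the other strand, at -47 to -40. It also held GCTTTCTCA, a match to the core with G on the other strand, at -97 to -89. The Nfe2l2 window held TGACTCCGC at -240 to -232 and the Gclm window GCACCGTCA, on the other strand, at -134 to -126. In Srxn1, TGAGTCAGC lay at -45 to -37 and GCCGACTCA, on the other strand, at -158 to -150. The match at -45 overlaps an AP-1 site (TGANTCA, searched on both strands), and another AP-1 site of Srxn1 lay at -102 to -96. Of 32851 promoter windows of the same length, 10.2% held TGACNNNGC, 14.4% held TGAGNNNGC, 6.75% held TGANTCA and 3.45% held TGATGNAA. Windows were present for 6 of the 8 members, 8 windows in all since Txnrd1 has 3 starts, and of those not printed the second start of Txnrd1 held GCTTTGTCA at -92 to -84. A match is a string of letters, not a measured binding site.

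**Figure D1:**
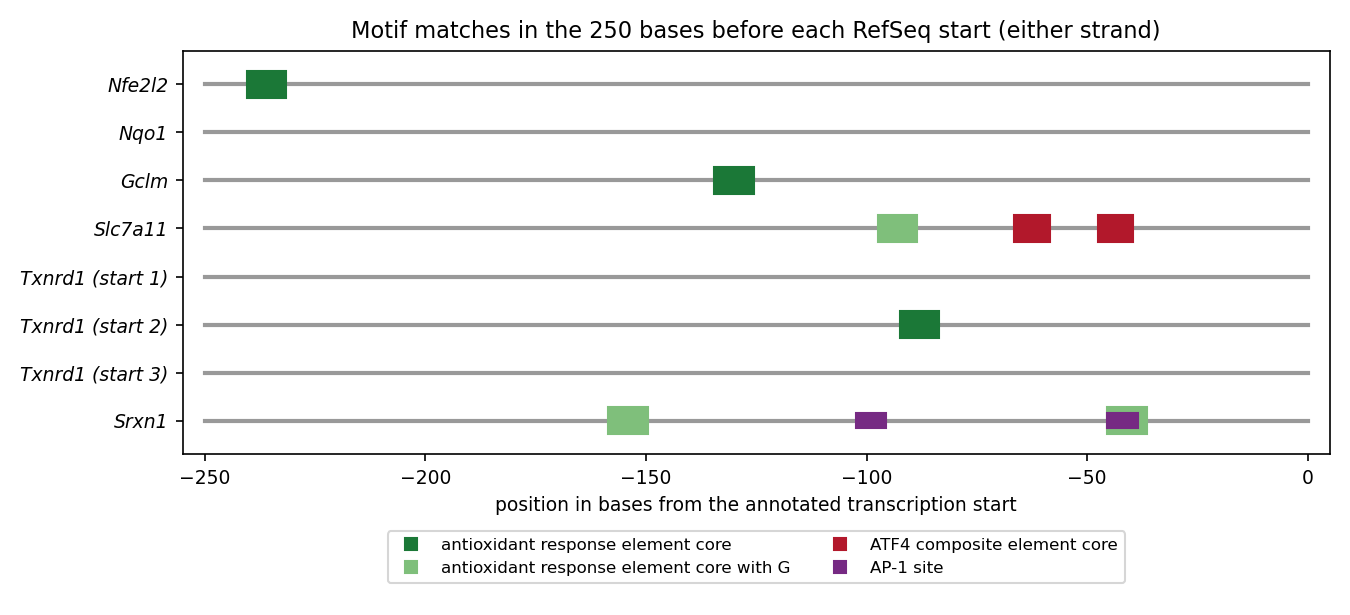
Positions of motif matches in the 250 bases before each annotated start, with a row for each start and the distance from it in bases on the horizontal axis. Gclc and Gsta4 have no row. Of the rows shown, Slc7a11 is the only one with matches to the ATF4 element, at -66 and -47, and the 2 AP-1 sites are both in Srxn1.

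Of the 8 members, Nfe2l2 and Slc7a11 rose in cuprizone corpus callosum, 1.56-fold and 2.28-fold under vehicle and 1.41-fold and 1.97-fold under BTKi in their mean FPKM (fragments normalised to transcript length and library size). The other 6 members, the glutathione synthesis genes Gclc and Gclm, the reductase genes Nqo1, Txnrd1 and Srxn1 and the transferase gene Gsta4, were not called in either comparison. Genes were called at an adjusted p under 0.05 in limma on log2(FPKM + 0.5), with Benjamini-Hochberg adjustment over the 15216 genes that passed a mean FPKM of 0.5, as all 8 members did. Cuprizone vehicle against naive vehicle called 10.2% of tested genes higher and 4.82% lower, beside 2 and 0 of the 8 members. Cuprizone BTKi against naive BTKi called 6.11% higher and 1.77% lower, again beside 2 and 0 members. The median log2 difference of the members was 0.04 under vehicle and 0.05 under BTKi, and that of all tested genes 0.03 and 0.02. These 2 comparisons share no library, but both use 1 estimate of each gene's spread, taken over all 4 groups.

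**Figure D2:**
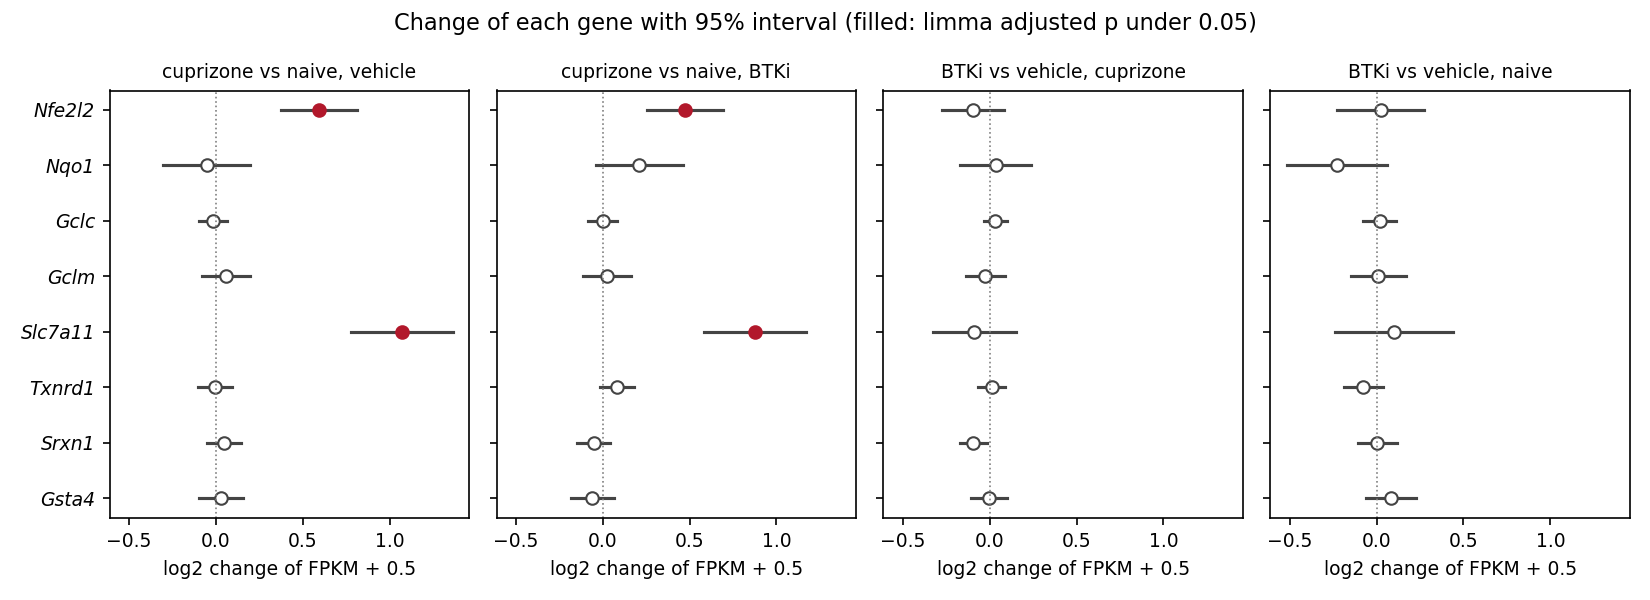
The log2 difference of FPKM + 0.5 of each member with its 95% interval from limma, in 4 panels, the first pair for cuprizone (vehicle, then BTKi) and the second pair for BTKi (cuprizone, then naive mice), with filled points for called values. Slc7a11 and Nfe2l2 lie right of 0 in both cuprizone panels, and no point is filled in the BTKi panels.

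Nfe2l2 (ENSMUSG00000015839.6, chromosome 2, 75675513 to 75704641, minus strand) encodes the factor itself. Its level ran from 10.6 to 17.4 FPKM with a median of 13.2 in the 8 cuprizone vehicle libraries, against 9.29, 9.02, 7.95 and 8.23 FPKM in the 4 naive vehicle libraries. All 8 cuprizone vehicle libraries lay above every naive vehicle library, an ordering that 5.92% of tested genes showed in this comparison. The level averaged 13.4 ± 2.67 FPKM in cuprizone vehicle and 8.62 ± 0.633 FPKM in naive vehicle (SD, n = 8 and 4), a log2 difference of 0.59 (SE 0.11, 95% interval 0.37 to 0.81, limma adjusted p = 0.000271). Under BTKi the level ran from 11.0 to 14.6 FPKM with a median of 12.2 in cuprizone, against 8.19, 9.65, 8.65 and 8.57 FPKM in naive mice. These groups did not overlap either, which 5.7% of tested genes shared under BTKi. The means were 12.4 ± 1.16 FPKM in cuprizone BTKi and 8.77 ± 0.623 FPKM in naive BTKi (SD, n = 8 and 4), with a log2 difference of 0.47 (SE 0.11, 95% interval 0.25 to 0.69, limma adjusted p = 0.0042). The SD was larger in cuprizone vehicle than in the other 3 groups, where libraries 8 and 5 read 17.4 and 16.6 FPKM and libraries 7 and 4 read 10.6 and 10.8 FPKM.

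Slc7a11 (ENSMUSG00000027737.10, chromosome 3, 49892526 to 50443614, minus strand) encodes xCT, the transporter that takes in cystine for glutathione synthesis in exchange for glutamate. It ran from 4.65 to 10.9 FPKM with a median of 7.76 in cuprizone vehicle, against 2.93, 3.08, 3.47 and 4.41 FPKM in naive vehicle. The groups did not overlap, an ordering that 5.92% of tested genes showed. Cuprizone vehicle 7, at 4.65 FPKM, lay just above the highest naive vehicle library. The mean was 7.94 ± 1.78 FPKM in cuprizone vehicle and 3.47 ± 0.666 FPKM in naive vehicle (SD, n = 8 and 4), a log2 difference of 1.07 (SE 0.14, 95% interval 0.78 to 1.36, limma adjusted p = 7.22e-06). Under BTKi it ran from 5.78 to 8.88 FPKM with a median of 7.35 in cuprizone, against 3.60, 3.60, 3.71 and 4.00 FPKM in naive mice. Again every cuprizone library was above every naive library, as for 5.7% of tested genes under BTKi. The means were 7.34 ± 1.17 FPKM in cuprizone BTKi and 3.73 ± 0.189 FPKM in naive BTKi (SD, n = 8 and 4), with a log2 difference of 0.88 (SE 0.14, 95% interval 0.58 to 1.17, limma adjusted p = 0.00016).

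Gclc (ENSMUSG00000032350.9, chromosome 9, 77754535 to 77794485, plus strand) encodes the catalytic subunit of glutamate-cysteine ligase, the first and rate-limiting enzyme of glutathione synthesis. It ran from 16.2 to 17.5 FPKM with a median of 17.1 in cuprizone vehicle, against 16.4, 18.5, 16.7 and 16.9 FPKM in naive vehicle. The groups overlapped, and their log2 difference was -0.02 (SE 0.04, 95% interval -0.10 to 0.07, limma adjusted p = 0.831). Under BTKi it ran from 16.4 to 17.8 FPKM with a median of 17.5 in cuprizone, against 15.5, 18.0, 17.7 and 18.1 FPKM in naive mice, where library 1 was the lowest of all 24. Gclm (ENSMUSG00000028124.15, chromosome 3, 122245557 to 122270732, plus strand) encodes the modifier subunit of the same enzyme. It ran from 8.95 to 11.8 FPKM with a median of 10.3 in cuprizone vehicle, against 10.6, 10.1, 9.45 and 9.14 FPKM in naive vehicle. These ranges overlapped too, with a log2 difference of 0.06 (SE 0.07, 95% interval -0.08 to 0.20, limma adjusted p = 0.627). Under BTKi the log2 difference was 0.00 for Gclc (95% interval -0.08 to 0.08, limma adjusted p = 0.996) and 0.02 for Gclm (95% interval -0.12 to 0.16, limma adjusted p = 0.908). Exons of Gclm share 296 bases with the antisense gene Gm17494 and 244 with the pseudogene Gm6061, which averaged 0.744 and 1.32 FPKM over the 24 libraries, so a small part of its value may be counted to either.

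Nqo1 (ENSMUSG00000003849.8, chromosome 8, 107388225 to 107403206, minus strand) encodes a quinone reductase widely used as a readout of NRF2 activity. It ran from 1.67 to 2.71 FPKM with a median of 2.25 in cuprizone vehicle, against 2.27, 2.45, 2.07 and 2.14 FPKM in naive vehicle. All 4 naive vehicle values lay inside the cuprizone vehicle range, and the log2 difference was -0.05 (SE 0.12, 95% interval -0.30 to 0.20, limma adjusted p = 0.817). Under BTKi it ran from 1.5 to 2.60 FPKM with a median of 2.28 in cuprizone, against 1.59, 2.42, 1.41 and 2.02 FPKM in naive mice (log2 difference 0.21, SE 0.12, 95% interval -0.04 to 0.46, limma adjusted p = 0.373). Nqo1 had the fewest fragments of the 8 members, an estimated 66 to 130 per library, so its counting error reached 12.3% in the lowest library and its intervals are among the widest.

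Txnrd1 (ENSMUSG00000020250.10, chromosome 10, 82833951 to 82897712, plus strand) encodes cytosolic thioredoxin reductase. It ran from 14.9 to 17.9 FPKM with a median of 15.7 in cuprizone vehicle, against 15.9, 18.5, 14.8 and 15.3 FPKM in naive vehicle. The highest and the lowest of these libraries were both naive, and the log2 difference was -0.01 (SE 0.05, 95% interval -0.10 to 0.09, limma adjusted p = 0.959), or 0.06 without naive vehicle 2 (limma adjusted p = 0.420). Under BTKi it ran from 15.7 to 16.4 FPKM with a median of 16.1 in cuprizone, against 14.6, 15.5, 15.0 and 15.8 FPKM in naive mice. Only naive BTKi 4 reached the cuprizone BTKi range, and the log2 difference of 0.08 (95% interval -0.01 to 0.18, limma adjusted p = 0.371) was not called.

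Srxn1 (ENSMUSG00000032802.8, chromosome 2, 152105516 to 152111376, plus strand) encodes sulfiredoxin, which restores overoxidised peroxiredoxins, and had the highest level of the 8 members. It ran from 28.7 to 32.8 FPKM with a median of 30.4 in cuprizone vehicle, against 28.8, 30.9, 29.1 and 29.1 FPKM in naive vehicle. The naive vehicle values lay inside the cuprizone vehicle range, with a log2 difference of 0.05 (SE 0.05, 95% interval -0.05 to 0.14, limma adjusted p = 0.564). Under BTKi it ran from 26.6 to 30.6 FPKM with a median of 28.5 in cuprizone, against 25.8, 30.5, 32.7 and 29.5 FPKM in naive mice (log2 difference -0.05, 95% interval -0.15 to 0.04, limma adjusted p = 0.615). Gsta4 (ENSMUSG00000032348.6, chromosome 9, 78182774 to 78209349, plus strand) encodes the glutathione transferase that removes the lipid peroxidation product 4-hydroxynonenal. It ran from 21.9 to 28.1 FPKM with a median of 24.6 in cuprizone vehicle, against 21.9, 24.9, 24.9 and 24.4 FPKM in naive vehicle. The ranges overlapped and the log2 difference was 0.03 (SE 0.06, 95% interval -0.09 to 0.15, limma adjusted p = 0.796). Under BTKi it ran from 22.0 to 26.8 FPKM with a median of 24.3 in cuprizone, against 27.7, 26.6, 22.9 and 24.9 FPKM in naive mice (log2 difference -0.06, 95% interval -0.18 to 0.07, limma adjusted p = 0.668).

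**Figure D3:**
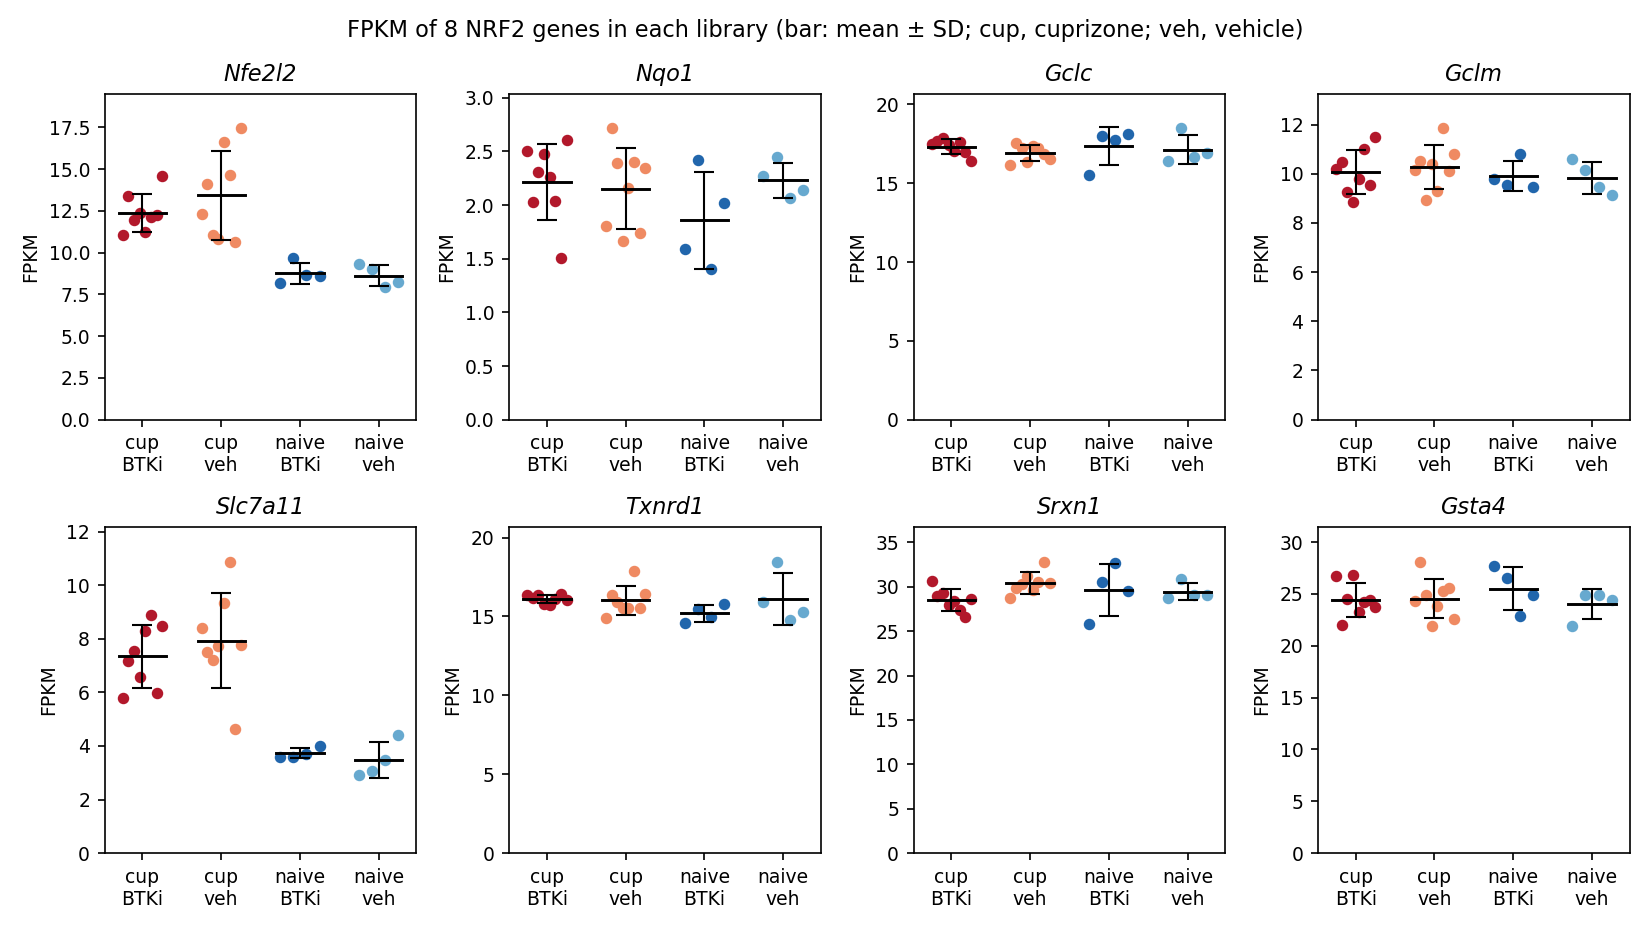
FPKM of each member in every library, with points for libraries and bars for the mean and SD of each group. Nfe2l2 and Slc7a11 are the members whose cuprizone libraries all lie above the naive libraries under the same drug, and the other 6 overlap. Of all tested genes, 5.92% showed this ordering under vehicle and 5.7% under BTKi.

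For 4 uncalled members, the 95% intervals under vehicle ended at 0.07 (Gclc), 0.09 (Txnrd1), 0.14 (Srxn1) and 0.15 (Gsta4), below the lower bounds of Nfe2l2 (0.37) and Slc7a11 (0.78) on the same log2 scale. The upper bounds of Gclm and Nqo1, 0.20 under vehicle for each, were also below 0.37. Under BTKi the upper bound of Nqo1 (0.46) lay above the lower bound of Nfe2l2 (0.25), and the interval of Nqo1 then covers a rise of that size. Differences between members were not tested.

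FPKM is scaled by length, so levels can be set side by side between genes, though the lengths behind these values are not given. Srxn1, Gsta4, Gclc and Txnrd1 held the first 4 ranks of mean FPKM in each group, and Slc7a11 and Nqo1 the last 2. Gclc and Txnrd1, next to each other in that order, had overlapping ranges in every group, and Srxn1 and Gsta4 overlapped in cuprizone BTKi and in naive BTKi. Ranks 5 and 6 differed with cuprizone. Nfe2l2 was above Gclm in 8 of 8 cuprizone BTKi, 8 of 8 cuprizone vehicle, 1 of 4 naive BTKi and 0 of 4 naive vehicle libraries. The ranges of the 2 genes overlapped in every group. The ratio of Nfe2l2 to Gclm within a library ran from 1.08 to 1.4 in cuprizone BTKi and from 1.04 to 1.78 in cuprizone vehicle. It ran from 0.800 to 1.01 in naive BTKi and from 0.842 to 0.901 in naive vehicle. The ratio was thus higher in cuprizone under BTKi and under vehicle, which restates the rise of Nfe2l2 beside an uncalled Gclm. Which mRNA was the more abundant rests on the lengths used.

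The inhibitor called no member. BTKi against vehicle called 0.177% of tested genes in cuprizone mice and 0.217% in naive mice, and the difference between these effects called 0.125%, each beside 0 of 8 members. In cuprizone mice Nfe2l2 averaged 12.4 ± 1.16 FPKM with BTKi and 13.4 ± 2.67 FPKM with vehicle (SD, n = 8 each), a log2 difference of -0.10 (SE 0.09, 95% interval -0.27 to 0.08, limma adjusted p = 0.803). Slc7a11 averaged 7.34 ± 1.17 FPKM with BTKi and 7.94 ± 1.78 FPKM with vehicle in cuprizone mice (SD, n = 8 each), a log2 difference of -0.09 (SE 0.12, 95% interval -0.33 to 0.15, limma adjusted p = 0.881). The ranges of both genes overlapped between BTKi and vehicle. Falls of up to 0.27 for Nfe2l2 and 0.33 for Slc7a11 lie within these intervals.

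Srxn1 was the member furthest from 0 by unadjusted p in cuprizone mice. It averaged 28.5 ± 1.22 FPKM with BTKi and 30.4 ± 1.20 FPKM with vehicle (SD, n = 8 each), a log2 difference of -0.09 (SE 0.04, 95% interval -0.17 to -0.02, limma unadjusted p = 0.0204, adjusted p = 0.454). It was the only member with an unadjusted p under 0.05 in that comparison, where 1338 of all tested genes had one, and 0 members had one in the other 2 BTKi tests, where 1922 genes did in naive mice and 1482 for the difference. In naive mice Nqo1 averaged 1.86 ± 0.453 FPKM with BTKi and 2.23 ± 0.165 FPKM with vehicle (SD, n = 4 each), a log2 difference of -0.23 (SE 0.14, 95% interval -0.52 to 0.06) and the lowest adjusted p of the 8 members there (limma adjusted p = 0.503). The rises of Nfe2l2 and Slc7a11 with cuprizone did not differ detectably between drug and vehicle, since the difference was -0.12 for Nfe2l2 (95% interval -0.43 to 0.19, limma adjusted p = 0.822) and -0.19 for Slc7a11 (95% interval -0.61 to 0.22, limma adjusted p = 0.780) on the log2 scale.

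Markers of the cells of white matter moved with cuprizone, and these values stand beside the rises of Nfe2l2 and Slc7a11. Of 8 mature oligodendrocyte markers, all 8 fell in both cuprizone comparisons, and of 8 microglia markers 6 rose in both. The other 2 were P2ry12 and Tmem119, with ratios of mean FPKM of 0.99 and 1.08 under vehicle and 1.01 and 1.03 under BTKi. Among the 6, Trem2 and Cd68 had 3.62 and 3.68 under vehicle and 3.28 and 3.38 under BTKi. The microglia score used below thus holds markers that moved unequally. Of 6 astrocyte markers 3 rose under BTKi and 3 rose and 1 fell under vehicle, while 0 of 5 general neuron markers were called. In naive vehicle, Snap25 averaged 997 FPKM, Syt1 330, Tubb3 132, Stmn2 132 and Rbfox3 129, beside 1994 FPKM for the oligodendrocyte gene Mbp. The libraries thus hold neuronal RNA beside that of white matter glia, and its part in the members' values was not tested. A marker score, the mean over the list of each gene's log2 value less its mean over all libraries, ran for microglia from 0.0179 to 0.758 in cuprizone BTKi, from -0.163 to 1.02 in cuprizone vehicle, from -0.617 to -0.465 in naive BTKi and from -0.732 to -0.423 in naive vehicle. The score for mature oligodendrocytes ran from -0.810 to 0.380 in cuprizone BTKi, from -0.934 to -0.102 in cuprizone vehicle, from 0.656 to 0.671 in naive BTKi and from 0.843 to 1.35 in naive vehicle. In bulk tissue more cells of a type and more mRNA per cell cannot be told apart. All 8 striatal neuron markers fell under vehicle and 0 were called under BTKi, with the highest score, 1.60, in naive vehicle 2. Choroid plexus markers, 0 of 8 called, were low in cuprizone vehicle 1, 4 and 7, whose scores reached -2.51, and the part of either tissue in the members' values was not tested.

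**Figure D4:**
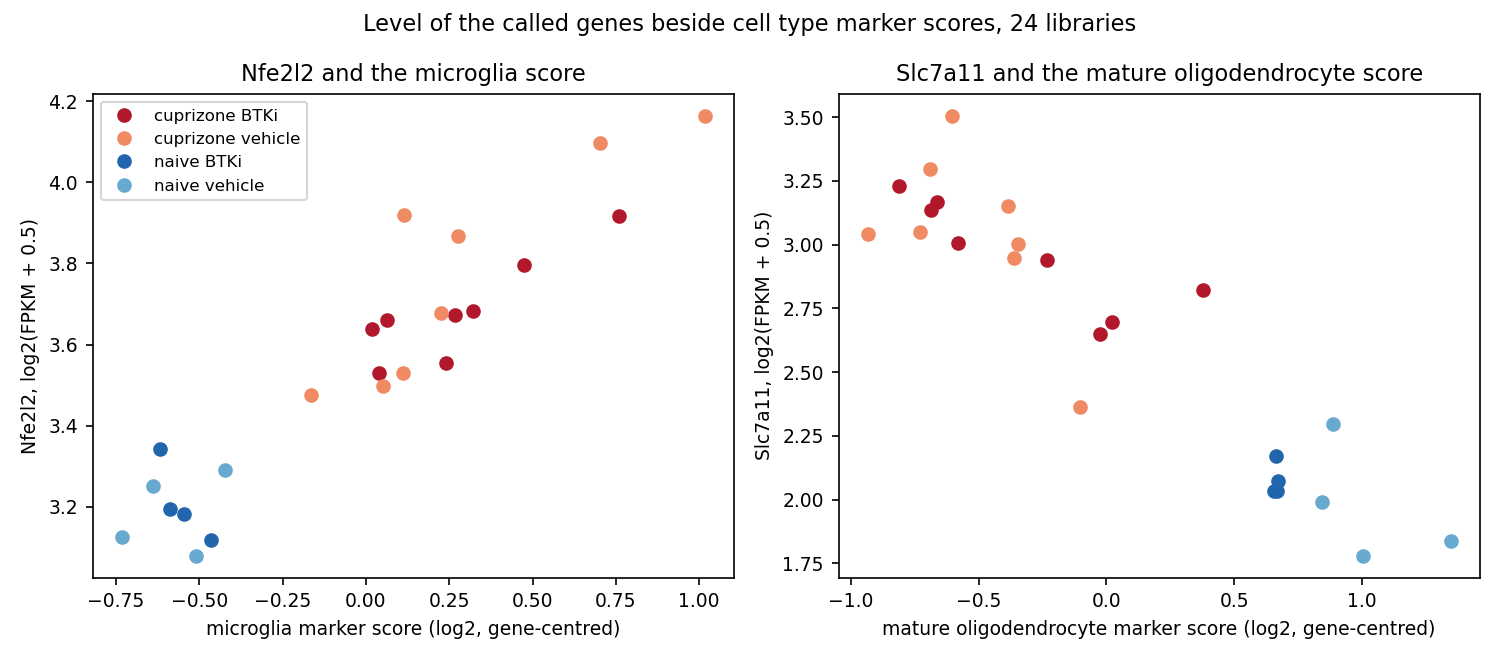
Level of Nfe2l2 against the microglia marker score (left) and of Slc7a11 against the mature oligodendrocyte marker score (right), both levels as log2(FPKM + 0.5), with 1 point a library and colours for the 4 groups. The highest Nfe2l2 point is cuprizone vehicle 8, with 17.4 FPKM and a microglia score of 1.02, and the naive libraries lie apart from the cuprizone libraries in both panels.

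Within the cuprizone groups Nfe2l2, as log2(FPKM + 0.5), varied with the microglia score. In the 8 cuprizone BTKi libraries Pearson's r was 0.871 (exact permutation p = 0.00434, adjusted p = 0.0304) and Spearman's rho 0.881 (exact permutation p = 0.00724, adjusted p = 0.0338), with r = 0.758 after the 2 libraries furthest from the median score were left out. In the 8 cuprizone vehicle libraries r was 0.877 (exact permutation p = 0.00141, adjusted p = 0.0198) and rho 0.929 (exact permutation p = 0.00223, adjusted p = 0.0313), with r = 0.654 after the same step. These p-values are two-sided and adjusted over 14 relations, those of Nfe2l2 and Slc7a11 to 3 marker scores and to each other in each cuprizone group. The relation of Slc7a11 to the microglia score did not pass, with r = 0.236 in cuprizone BTKi (exact permutation p = 0.584, adjusted p = 0.629) and r = 0.392 in cuprizone vehicle (exact permutation p = 0.333, adjusted p = 0.493).

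Slc7a11 varied inversely with the mature oligodendrocyte score in cuprizone BTKi, with r = -0.863 (exact permutation p = 0.00918, adjusted p = 0.0428) and rho = -0.881 (exact permutation p = 0.00724, adjusted p = 0.0338), and r = -0.957 without the 2 furthest libraries. In cuprizone vehicle the same relation had r = -0.606 (exact permutation p = 0.0969, adjusted p = 0.226) and rho = -0.571 (exact permutation p = 0.151, adjusted p = 0.353) and did not pass. Whether the relations differ between the groups was not tested. Nfe2l2 and Slc7a11 themselves had r = 0.344 in cuprizone BTKi (exact permutation p = 0.410, adjusted p = 0.521) and r = 0.576 in cuprizone vehicle (exact permutation p = 0.125, adjusted p = 0.249). The remaining 6 relations, of Nfe2l2 and Slc7a11 to astrocyte markers and of Nfe2l2 to oligodendrocyte markers, had exact permutation adjusted p from 0.175 for r and from 0.160 for rho upwards. Among them, Nfe2l2 and the astrocyte score had r = 0.631 in cuprizone BTKi (exact permutation p = 0.0890, adjusted p = 0.226). In cuprizone vehicle their r was 0.719 (exact permutation p = 0.0499, adjusted p = 0.175). Whether Nfe2l2 varied more closely with the microglia score than with the astrocyte score was not tested.

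The called members had different closest genes over the 24 libraries. Those of Nfe2l2 by Pearson's r of log2(FPKM + 0.5) were Lcp1 (r = 0.968), which encodes a leukocyte actin-bundling protein, Tlr2 (0.967), an innate immune receptor, and Arhgap30 (0.966). After the group means were removed, the closest were Tlr2 (0.915), Cd9 (0.913) and Clec7a (0.911), the last a receptor of phagocytes. The closest to Slc7a11 were Atf5 (0.951) and Nupr1 (0.945), a pair of stress response factors, and Aldh1l2 (0.941), a mitochondrial enzyme of folate metabolism. After the group means were removed they were Moxd1 (0.796), Hnrnpf (0.773) and Snhg12 (0.753). Between Nfe2l2 and Slc7a11 r was 0.841 over the 24 libraries and 0.401 without the group means. These are descriptions over libraries that share the cuprizone contrast.

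Uncalled members had other neighbours, with lower values of r over the 24 libraries, where called members share the cuprizone contrast with theirs. After the group means were removed, the highest r was 0.864 for Nqo1, 0.859 for Txnrd1, 0.857 for Gclc and 0.87 for Gsta4. These were above the 0.796 of Slc7a11, and those of Srxn1 (0.781) and Gclm (0.741) were below it. The next values are again over the 24 libraries. The closest gene was Myo7a for Nqo1 (0.828), Ctnnb1 for Txnrd1 (0.825), Rbm27 for Gclc (0.796), Cadps for Srxn1 (0.793), Bdh2 for Gsta4 (0.745) and Rnf166 for Gclm (0.667). Among members, Gclc and Txnrd1 varied together with r = 0.602 after the group means were removed, and Gclc and Srxn1 with r = 0.559.

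Around the 8 members, 93 other genes of the NRF2 pathway were listed in 6 groups by role, of which 86 were tested. Cuprizone under vehicle called 15 of them higher and 7 lower, and cuprizone under BTKi 13 higher and 2 lower, beside the 10.2% and 4.82% and the 6.11% and 1.77% of all genes. The same shares stand beside the counts of each list below, of 7 to 25 tested genes. No count of a list was tested against them. No gene of these lists was called for BTKi against vehicle in cuprizone or in naive mice. With median ratio scaling the split was 14 higher and 10 lower under vehicle and 11 and 7 under BTKi, and over all genes 1241 higher and 961 lower under vehicle, against 1555 and 733 without it, and 768 and 415 under BTKi, against 929 and 269. Without the filter on mean FPKM the vehicle calls of Gss, Fth1, Bach1, Mgst1 and Akr1b8 and the BTKi calls of Nfe2l3, Gpx4, Abcc4 and Pgd were lost. A fit of only the groups compared lost the vehicle calls of Gss, G6pdx, Fth1 and Bach1 and the BTKi calls of Gpx4 and Abcc4. With a replicate block the vehicle calls of Gss, Fth1, Bach1 and Akr1b8 and the BTKi calls of Nfe2l3, Gpx4, Abcc4 and Pgd were lost. Akr1b8 and Pgd also lost these calls with median ratio scaling and with quantile normalization, and Abcc4 with the second.

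The regulators of NRF2 (13 tested) gave 4 higher and 1 lower under vehicle, and 1 higher and 1 lower under BTKi. Maff, a small MAF partner of NRF2, averaged 1.41 ± 0.275 FPKM in cuprizone vehicle and 0.445 ± 0.129 FPKM in naive vehicle (SD, n = 8 and 4), a log2 difference of 1.02 (SE 0.12, limma adjusted p = 1.47e-06), and its log2 difference under BTKi was 0.70 (limma adjusted p = 0.000278). Mafk, another partner, rose by a log2 difference of 0.30 under vehicle (limma adjusted p = 0.00665) and had 0.23 under BTKi (limma adjusted p = 0.0623). Bach1, a repressor that competes for the same elements, had a log2 difference of 0.22 under vehicle (limma adjusted p = 0.0298), a call lost in 6 of 24 fits with 1 library left out. Nfe2l3, a relative of NRF2, fell by 1.05 on the log2 scale under vehicle (limma adjusted p = 6.38e-06) and by 0.48 under BTKi (limma adjusted p = 0.0279), where 4 of the 24 such fits lost the call. Keap1, the repressor of NRF2, was not called, with log2 differences of 0.07 under vehicle (limma adjusted p = 0.248) and 0.05 under BTKi (limma adjusted p = 0.559).

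In glutathione synthesis and recycling 2 of 15 genes rose and 1 fell under vehicle, and 3 rose under BTKi. Slc3a2, which encodes the heavy chain that carries xCT to the membrane, averaged 76.4 ± 7.65 FPKM in cuprizone vehicle and 51.4 ± 2.26 FPKM in naive vehicle (SD, n = 8 and 4), a log2 difference of 0.56 (SE 0.09, limma adjusted p = 4.56e-05), and of 0.39 under BTKi (limma adjusted p = 0.00341). The neutral amino acid transporter gene Slc1a4 rose with it, by log2 differences of 0.36 under vehicle (limma adjusted p = 7.02e-05) and 0.24 under BTKi (limma adjusted p = 0.00655). Both chains of the cystine transporter thus rose, while both subunits of the ligase that uses its cysteine were not called. Gss, glutathione synthetase, had a log2 difference of -0.37 under vehicle (limma adjusted p = 0.0416), a call lost in 8 of the 24 fits with 1 library left out, with a limma adjusted p of 0.265 without naive vehicle 2. Gsr, glutathione reductase, had a log2 difference of 0.02 (limma adjusted p = 0.864). Gpx4, which reduces lipid peroxides, had 0.11 under BTKi (limma adjusted p = 0.0384), a call lost in 6 of those fits and with either other scaling.

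Among thioredoxin, peroxiredoxin and superoxide enzymes 2 of 18 rose in each cuprizone comparison and 0 fell. Of all tested genes, 10.2% were called higher under vehicle and 6.11% under BTKi, so the count under vehicle is near that share. Sesn2, a stress-induced sestrin, had a log2 difference of 0.35 under vehicle (limma adjusted p = 0.000353) and 0.26 under BTKi (limma adjusted p = 0.00855). Prdx6, a peroxiredoxin that uses glutathione, had 0.26 under vehicle (limma adjusted p = 0.00753) and 0.31 under BTKi (limma adjusted p = 0.00255). Txn1 (log2 difference 0.02, limma adjusted p = 0.854) and Prdx1 (-0.04, limma adjusted p = 0.610), partners of Txnrd1 and Srxn1, were not called under vehicle.

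Of 25 tested transferase and conjugation genes 4 rose and 2 fell under vehicle, and 3 rose and 1 fell under BTKi. Gstp1, a transferase, averaged 151 ± 6.81 FPKM in cuprizone vehicle and 191 ± 8.63 FPKM in naive vehicle (SD, n = 8 and 4), a log2 difference of -0.34 (SE 0.05, limma adjusted p = 1.2e-05), and had -0.29 under BTKi (limma adjusted p = 0.000142). Abcc3, an exporter of conjugates, rose by log2 differences of 0.46 under vehicle (limma adjusted p = 0.00255) and 0.50 under BTKi (limma adjusted p = 0.0019). Gstm7 had -0.47 under vehicle (limma adjusted p = 0.00292). Mgst1, a microsomal transferase, had 0.60 under BTKi (limma adjusted p = 0.00125) and 0.37 under vehicle (limma adjusted p = 0.0337), the second lost in 5 of 24 fits with 1 library left out. The calls of Akr1b8 under vehicle (0.37, limma adjusted p = 0.045) and of the exporter gene Abcc4 under BTKi (0.28, limma adjusted p = 0.0297) were lost in 12 and 5 such fits.

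Of the 8 genes listed for the supply of NADPH, the reductant of thioredoxin and glutathione, 1 rose and 2 fell under vehicle and 2 rose under BTKi. The 1 that rose under vehicle was Mthfd2. Mthfd2, a mitochondrial enzyme of folate metabolism, rose by log2 differences of 0.59 under vehicle (limma adjusted p = 0.00029) and 0.74 under BTKi (limma adjusted p = 3.98e-05). Taldo1, of the pentose phosphate pathway, had -0.40 under vehicle (limma adjusted p = 0.000106), and G6pdx, the entry enzyme of that pathway, had -0.21 (limma adjusted p = 0.0116), which was lost without naive vehicle 2 (limma adjusted p = 0.103) and in a fit of only the groups compared (limma adjusted p = 0.0593). Pgd, the next oxidative step, had 0.21 under BTKi (limma adjusted p = 0.0484), and 16 of the 24 fits lost this call.

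Among haem and iron targets 2 of 7 tested genes rose in each cuprizone comparison, and 1 fell under vehicle. Hmox1, haem oxygenase 1, ran from 5.73 to 10.6 FPKM in cuprizone vehicle, against 3.05, 2.99, 2.18 and 3.07 FPKM in naive vehicle. These groups did not overlap, with cuprizone above naive, as for 5.92% of tested genes. It averaged 8.30 ± 2.02 FPKM in cuprizone vehicle and 2.82 ± 0.432 FPKM in naive vehicle (SD, n = 8 and 4), a log2 difference of 1.38 (SE 0.18, limma adjusted p = 5.43e-06). Under BTKi it averaged 6.70 ± 1.90 FPKM in cuprizone and 3.12 ± 0.211 FPKM in naive mice (SD, n = 8 and 4), a log2 difference of 0.95 (limma adjusted p = 0.000872). Ftl1, ferritin light chain, rose by log2 differences of 0.38 under vehicle (limma adjusted p = 0.00305) and 0.37 under BTKi (limma adjusted p = 0.0057). Fth1, ferritin heavy chain, had -0.20 under vehicle (limma adjusted p = 0.0287), lost in 4 of 24 fits with 1 library left out and under quantile normalization, where the limma adjusted p was 0.839.

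Slc7a11 was also set beside a list of 13 genes, Atf4 itself and 12 targets of ATF4. Of these, 8 rose under vehicle, 7 rose under BTKi and 0 fell, beside 10.2% and 6.11% of all genes called higher. Their median log2 difference was 0.35 under vehicle and 0.26 under BTKi, beside 0.03 and 0.02 for all genes. This list was chosen with earlier results of these data known, so its counts are a description, and the part of ATF4 was not tested. Atf4 was among the 8 under vehicle, with a log2 difference of 0.19 (limma adjusted p = 0.00414), and had 0.07 under BTKi (limma adjusted p = 0.446). Vldlr, a lipoprotein receptor named after its values were seen, was called lower under vehicle with median ratio scaling (limma adjusted p = 0.0231) and quantile normalization (limma adjusted p = 0.0176), and in 3 of 24 fits with 1 library left out. Chac1, Sesn2 and Slc3a2 of the list also stand in the lists above. Nupr1, a stress-induced chromatin protein, averaged 34.4 ± 6.45 FPKM in cuprizone vehicle and 6.28 ± 0.854 FPKM in naive vehicle (SD, n = 8 and 4), a log2 difference of 2.35 (SE 0.22, limma adjusted p = 4.44e-08), and had 1.76 under BTKi (limma adjusted p = 5.98e-06). Trib3, a pseudokinase, had log2 differences of 1.60 under vehicle (limma adjusted p = 3.13e-06) and 1.21 under BTKi (limma adjusted p = 0.000206). The transcription factor genes Atf3 and Ddit3 rose by log2 differences of 1.63 and 0.65 under vehicle (limma adjusted p = 8.23e-08 and 2.59e-05). Slc7a5, an amino acid transporter that also pairs with Slc3a2, had 0.52 under BTKi (limma adjusted p = 0.000593). Asns (-0.05, limma adjusted p = 0.669) and Chac1 (-0.04, limma adjusted p = 0.874), a pair of ATF4 targets chosen after their values were seen, were not called under vehicle.

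**Figure D5:**
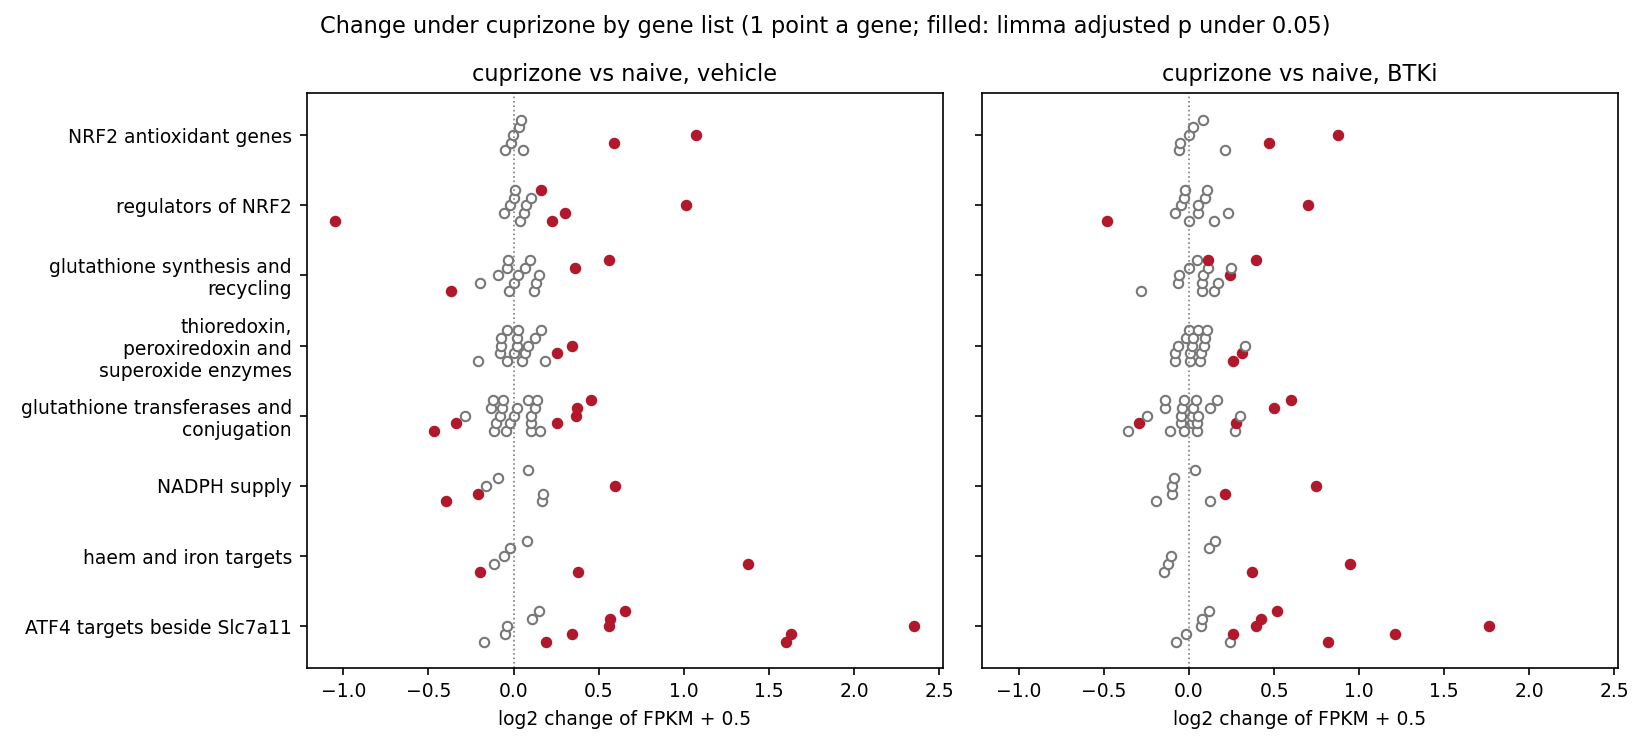
The log2 difference of FPKM + 0.5 for each tested gene (1 point a gene) of the 8 members and of each pathway list, with cuprizone against naive under vehicle in the left panel and under BTKi in the right, and filled points for genes called by limma. In the ATF4 list all filled points, 8 under vehicle and 7 under BTKi, lie right of 0, although either other scaling adds 1 called lower under vehicle, and most points of the NRF2 lists are open and close to 0.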

How the data were processed

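The authors deposited 1 table of FPKM values for 54446 versioned Ensembl mouse gene IDs in 24 libraries, made from polyadenylated RNA with the Qiagen RNeasy Micro and TruSeq stranded mRNA kits, per the labels' protocols. Aligner, counting tool and genome build: not given in the sources used here. FPKM depends on a gene's length and on what other genes take of the library. Coordinates of the members, whose IDs were all found there, are those of GENCODE M21 (GRCm38).

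A fit with limma 3.58.1 (R 4.3.3, eBayes with a trend) covered the 15216 genes whose mean FPKM reached 0.5, on the scale log2(FPKM + 0.5). It held 4 groups without covariates, used Benjamini-Hochberg adjustment at 0.05 and was tested on simulated data. The pseudocount understates changes of low genes. Depth was estimated from the low values, taking union exon lengths, at 26470000 to 30960000 fragments per library. Since FPKM values are not counts, count tests were not used. Counting errors cover sampling of fragments only. Relations within groups were tested by exact permutation. Promoters come from RefSeq (GRCm38.p6), and the core with G was added after the first motif had been searched. The members, lists and tests were chosen with earlier results of these data known. Named genes are the members, up to 4 called genes with the largest change per list and comparison, fixed partners (Keap1, Gss, Gsr, Slc3a2, Txn1, Prdx1, Hmox1, G6pdx and Fth1), and the 3 genes most alike to a member. Alternatives were other pseudocounts (0.1 and 1), no filter, median ratio scaling, quantile normalization, only the groups compared, a replicate block and leaving out each library. Python 3.11.15, pandas 2.3.3, numpy 2.4.6 and matplotlib 3.10.9 were used.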

Additional observations from a re-analysis of the deposited data

Results flagged for a closer look

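Among 32 sets of values, 8 members in 4 groups, those of 4 to 10 libraries were screened for a single library far from the rest, and 2 stood out, where chance gives about 1 in 20. Gclc in naive BTKi 1, at 15.5 FPKM, lay below the nearest other naive BTKi library at 17.7 FPKM by 0.843 of the group's range. Srxn1 in naive vehicle 2, at 30.9 FPKM, lay above the nearest other naive vehicle library at 29.1 FPKM by 0.836 of the group's range. Neither gene was called in any comparison.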

How the results depend on the processing

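The count of members called stayed at 2, 2, 0, 0 and 0 in the 5 comparisons under each alternative run, of which the fit of only the groups compared could not give the difference of the BTKi effects. Of 1312 single values of members under alternatives no called one turned its sign or lost its call. Another 58, all uncalled, turned theirs, to values of 0.12 or less in size. Of these 58, 9 differed from the main fit by at least the standard error of the difference in that fit. Among the 9, with cuprizone vehicle 1, 4 and 7 left out Nqo1 had a log2 difference of 0.09 for cuprizone under vehicle and -0.11 for BTKi in cuprizone, and with naive vehicle 2 also left out Nqo1 had 0.12, Txnrd1 0.10 and Gclc 0.04 for cuprizone under vehicle. Replicate numbers did not pair the libraries: 28 pairs with the same number had a median correlation of deviations of 0.0196. With a replicate block the genes called numbered 1859 and 1009 for cuprizone under vehicle and under BTKi, 26 and 27 for BTKi in cuprizone and in naive mice and 9 for the difference, against 2288, 1198, 27, 33 and 19. The counts of genes called for BTKi depended on other settings: 16 in cuprizone and 21 in naive mice with no filter, and 3 in naive mice with only the groups compared. With 1 library left out in turn they ran from 14 to 34 in cuprizone, 7 to 41 in naive mice and 8 to 23 for the difference, and cuprizone called 1824 to 2390 genes under vehicle and 861 to 1294 under BTKi. Leaving out cuprizone vehicle 1, 4 and 7, chosen after seeing the data, gave 11, 19 and 7 for the BTKi tests, and leaving out naive vehicle 2 as well 11, 7 and 8. The cause was not tested. Fragment depth limits Nqo1 most.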
